A study of Mus musculus with 4 samples.

Results

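The cell cycle and DNA replication genes examined here are 32 genes chosen by symbol from the deposited table of 24411 gene symbols. The rule divides them into a replication arm of 10 genes (Mcm2, Mcm3, Mcm4, Mcm5, Mcm6, Mcm7, Pcna, Rrm2, Tyms and Tk1) and a mitotic arm of the other 22. All 32 symbols were present in the table. The RNA came from the sublingual gland, which secretes mucous saliva, and the donors were female Nkx2.3-/- mice on the C57BL/6J background, so every library carries this knockout of the homeobox gene Nkx2-3. Reads of Nkx2-3 itself were few but present, with 31, 28, 21 and 29 counts in replicates 1 to 4. Which exons the allele lacks is not stated in the labels, so these reads check nothing. There were 2 libraries at 8 weeks of age (replicates 1 and 2) and 2 at 32 weeks (replicates 3 and 4), with no other treatment named and no wild-type library analysed here. The labels do not say whether the libraries came from separate or pooled animals, so p-values measure only the spread between these libraries, which may be technical. Depth was 12925869 to 16484772 counts per library. Both 8-week libraries stood apart in some respect. In 8-week replicate 1 the salivary amylase gene Amy1, typical of the parotid gland, had 152 CPM (counts per 1e6 counts of the library, scaled by the trimmed mean of M-values, TMM) against 1.63 to 2.005 CPM in the other 3 libraries, and Smr3a had 49.7 CPM against 0 counts (genes chosen after their values were seen). Prol1, listed with Amy1 among submandibular and parotid genes, was high in both 8-week libraries (196 and 203 CPM, against 10.02 and 0.407 CPM at 32 weeks). Over the 12810 genes tested for age, 8-week replicate 2 was the highest library in 34.7% and the lowest in 35.3%, more often than any other library at either end. Results are therefore also given without each library. Muc19, the gel-forming mucin of the gland, stood at 12021 to 20281 CPM. In bulk tissue, fewer dividing cells and less RNA per dividing cell cannot be told apart.

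DNA replication begins when the MCM2 to MCM7 helicase, loaded on origins in G1 phase, opens the double helix. The sliding clamp PCNA then holds the polymerases on the template, while ribonucleotide reductase (Rrm2), thymidylate synthase (Tyms) and thymidine kinase (Tk1) supply deoxynucleotides. The genes of this arm are turned on at the G1 to S transition by E2F transcription factors. Mitotic genes follow in G2 phase: cyclin B with Cdk1 drives entry into mitosis, Plk1 and the Aurora kinases build the spindle, Bub1 and Bub1b hold the spindle checkpoint, and Cdc20 and Ube2c end mitosis by marking cyclin B for destruction. Many promoters of this arm carry a cell cycle homology region (CHR) and CCAAT boxes, read by the MuvB complexes with B-Myb and Foxm1 and by NF-Y. In an adult salivary gland few cells divide at a time, and such transcripts are rare.

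Promoter sequences show what the arms share apart from their names. RefSeq promoters (GRCm38.p6, 250 bases before to 50 after the start of the gene) were found for 9 of the 10 replication genes, all but Mcm4. They were found for 17 of the 22 mitotic genes, all but Aurkb, Ccna2, Tpx2, Kif20a and Foxm1. Each was searched on both strands for 3 kinds of letters. The E2F-type letters were TTCCCGC, the similar word TTCGCGC, the variant form TTGCCGC, and finally also TTGGCGC. The CHR-type letters were TTTGAA and the related word TTTAAA, and the last kind was the CCAAT box. E2F-type letters stood in 5 of the 9 replication promoters (55.6%) and in 3 of the 17 mitotic promoters (17.6%), against 10.9% of the 27025 genes in the promoter table. CHR-type letters stood in 15 of the 17 mitotic promoters (88.2%) and in 4 of the 9 replication promoters (44.4%), against 30.6% of all genes. CCAAT stood in 15 of 17 mitotic promoters (88.2%) and 7 of 9 replication promoters (77.8%), against 41.1% of all genes. The mitotic promoters without CHR-type letters were those of Bub1 and Nusap1. These are matches of letters in a fixed window and do not show binding.

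The arm's letters can be read in the stretches just before the start of the gene. The sequences below are those of the members whose window held the letters typical of their arm and lay outside every annotated RefSeq gene, at most 6 from the mitotic arm. They run 5′ to 3′ on the gene's strand and end at the base before its start. Capitals mark E2F-type letters, CHR-type letters and CCAAT boxes, on either strand. Coordinates are GRCm38.p6. The mitotic windows hold 120 bases and that of Mcm6 holds 180.
Cdk1 (chr10:69352913-69353032, minus strand): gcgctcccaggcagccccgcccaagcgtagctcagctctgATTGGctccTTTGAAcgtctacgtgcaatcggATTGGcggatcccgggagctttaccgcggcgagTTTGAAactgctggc
Ube2c (chr2:164769809-164769928, plus strand): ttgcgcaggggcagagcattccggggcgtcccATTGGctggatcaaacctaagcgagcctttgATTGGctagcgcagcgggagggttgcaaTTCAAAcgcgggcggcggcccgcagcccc
Cdc20 (chr4:118437344-118437463, minus strand): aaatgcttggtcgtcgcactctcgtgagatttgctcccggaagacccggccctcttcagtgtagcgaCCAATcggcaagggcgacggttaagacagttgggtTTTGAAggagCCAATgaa
Ccnb1 (chr13:100786487-100786606, minus strand): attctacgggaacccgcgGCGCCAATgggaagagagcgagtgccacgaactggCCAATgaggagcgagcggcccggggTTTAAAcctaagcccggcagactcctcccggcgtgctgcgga
Kif11 (chr19:37376262-37376381, plus strand): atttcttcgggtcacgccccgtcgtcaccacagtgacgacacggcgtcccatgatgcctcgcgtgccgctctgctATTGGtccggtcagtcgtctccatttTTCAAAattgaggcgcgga
Plk1 (chr7:122159315-122159434, plus strand): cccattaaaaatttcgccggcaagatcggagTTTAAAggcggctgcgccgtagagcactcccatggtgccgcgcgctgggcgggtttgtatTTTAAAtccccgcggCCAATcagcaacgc
Mcm6 (chr1:128359706-128359885, minus strand): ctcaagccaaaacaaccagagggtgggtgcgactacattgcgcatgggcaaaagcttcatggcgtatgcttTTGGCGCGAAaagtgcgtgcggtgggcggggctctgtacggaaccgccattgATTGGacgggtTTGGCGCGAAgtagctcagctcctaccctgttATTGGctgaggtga
In Cdc20, Kif11 and Ube2c a CCAAT box lies upstream of CHR-type letters that begin 18, 19 and 29 bases before the start. In Ccnb1 the E2F-type letters and a CCAAT box overlap in the first capital run. In Mcm6 each run of E2F-type capitals is a pair of overlapping matches on opposite strands, and no CHR-type letters lie in this window.

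**Figure D1:**
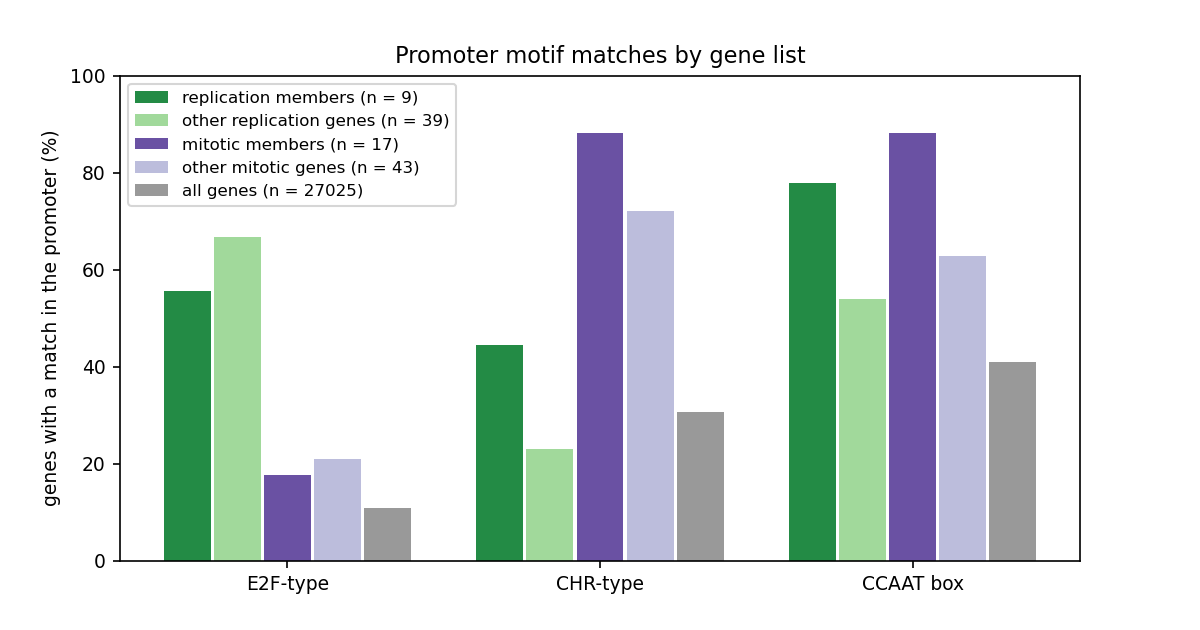
Share of genes (vertical axis, %) whose promoter holds E2F-type letters, CHR-type letters or a CCAAT box, for the replication and mitotic genes, for other genes of each process, and for all 27025 genes of the promoter table. E2F-type letters are most frequent in the replication lists (55.6% and 66.7%) and CHR-type letters in the mitotic lists (88.2% and 72.1%).

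The same division was seen in genes of the 2 processes outside the 32. Of 39 other replication genes with a promoter, 26 held E2F-type letters (66.7%) and 9 held CHR-type letters (23.1%). Of 43 other mitotic genes with a promoter, 31 held CHR-type letters (72.1%) and 9 held E2F-type letters (20.9%).

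The replication genes were the more abundant arm. Pcna had 20.4 and 25.3 CPM in 8-week replicates 1 and 2 and 21.2 and 16.5 CPM in 32-week replicates 3 and 4. Tyms, which makes thymidylate, had 10.7 and 15.2 CPM in the younger libraries and 13.9 and 10.5 CPM in the older ones. For both genes the values at the 2 ages overlapped, and the lowest library was 32-week replicate 4. Per kilobase of the longest transcript, the mean level over the 4 libraries was 13.7 CPM for Pcna, 3.42 for Mcm7, 3.23 for Tyms and 2.68 for Tk1, and the lowest of this arm was Mcm5 with 0.605.

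The helicase subunits differed in how far they varied across libraries. The highest to lowest ratio rose gradually, from 1.18 for Mcm2 and 1.32 for Mcm7 through 1.64 for Mcm3 and 1.75 for Mcm6. It was 2.31 for Mcm4 and 2.32 for Mcm5. Counts differed too, with 98 to 125 per library for Mcm2 and 23 to 45 for Mcm5. The part of counting error in these ratios was not tested. Mcm2 had 7.97 and 6.84 CPM in the younger libraries and 6.77 and 7.27 CPM in the older ones, the narrowest spread of the 32 genes with a highest to lowest ratio of 1.18. Mcm7 had 10.1 and 12.01 CPM in the younger libraries and 9.26 and 9.07 CPM in the older ones. It is the only replication gene (1 of 10) in which both 32-week libraries lay below both 8-week libraries, beside 14.2% of all genes tested. The exons of Mcm7 overlap those of Ap4m1, Cops6 and the microRNA genes Mir25 and Mir93, so some of its counts are uncertain. In all, 11 of the 32 genes share exonic bases with another annotated gene, the others being Tyms, Tk1, Top2a, Ccna2, Cdc20, Ube2c, Kif20a, Nusap1, Cdca8 and Foxm1.

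Mcm4, Mcm5 and Mcm6 varied more than Mcm2 within the same helicase. Mcm4 had 3.32 and 7.66 CPM in the younger libraries and 5.18 and 5.002 CPM in the older ones. Mcm5 had 1.70 and 3.11 CPM in the younger libraries and 2.14 and 1.34 CPM in the older ones. Mcm6 had 3.39 and 5.94 CPM in the younger libraries and 5.67 and 3.49 CPM in the older ones. In these genes, as in Mcm3 (2.66 and 4.35 CPM in the younger libraries and 2.97 and 3.14 CPM in the older ones), 8-week replicate 2 was the highest library and the ages overlapped.

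The nucleotide supply genes did not share a single order. Rrm2, the small subunit of ribonucleotide reductase, had 3.62 and 6.01 CPM in the younger libraries and 6.08 and 2.73 CPM in the older ones, so that the highest and the lowest library were both 32 weeks old. Tk1 had 3.47 and 3.798 CPM in the younger libraries and 4.63 and 3.55 CPM in the older ones, with 32-week replicate 3 the highest. Tk1 was also the only replication gene with a fitted fold change above 0.

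**Figure D2:**
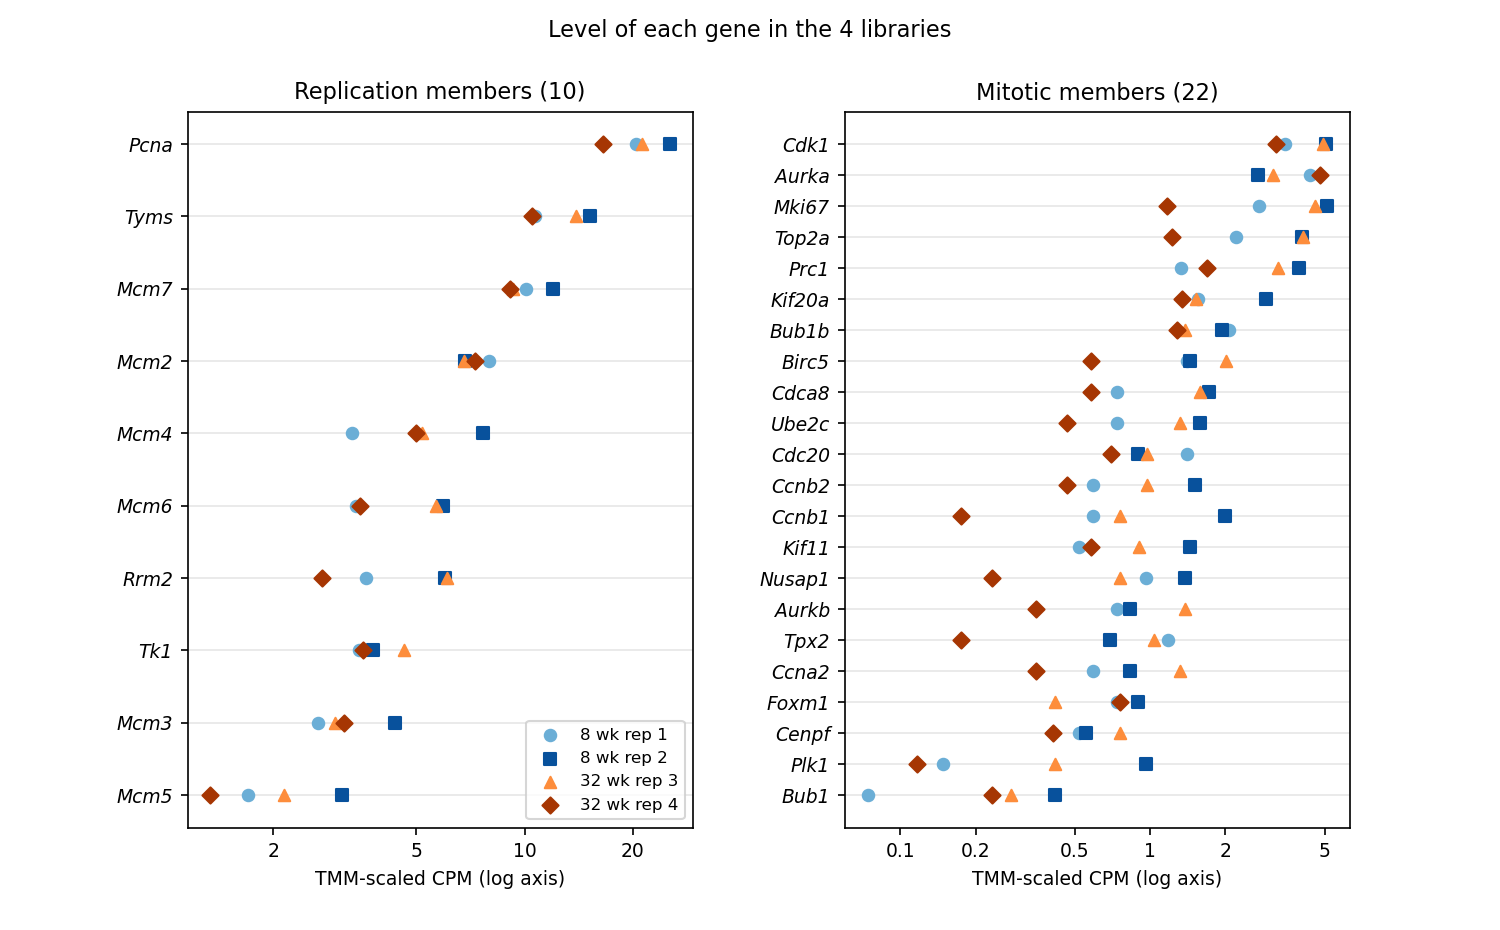
TMM-scaled CPM (horizontal log axis) of each of the 10 replication and 22 mitotic genes, ordered by mean, with 1 symbol per library and no error bars. The 8-week replicate 2 (dark blue squares) is highest in 20 of the 32 genes, against 34.7% of all genes tested, and 32-week replicate 4 (dark red diamonds) is lowest in 22, against 20.3% of all genes.

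The mitotic genes were rarer and spread more widely. Mki67, which encodes the proliferation antigen Ki-67, had 2.73 and 5.11 CPM in the younger libraries and 4.56 and 1.16 CPM in the older ones, from 37, 74, 66 and 20 counts in that order. Top2a, the topoisomerase that untangles replicated chromosomes, had 2.21 and 4.07 CPM in the younger libraries and 4.08 and 1.22 CPM in the older ones. Cdk1, the mitotic kinase, had 3.47 and 5.04 CPM in the younger libraries and 4.91 and 3.20 CPM in the older ones. In each of these 3 genes 8-week replicate 2 and 32-week replicate 3 stood close together, above the other library of their own age, and 32-week replicate 4 was lowest.

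Genes of the midzone and the chromosomal passenger complex were also lowest in 32-week replicate 4 or in 8-week replicate 1. Prc1, which bundles microtubules of the central spindle, had 1.33 and 3.94 CPM in the younger libraries and 3.25 and 1.69 CPM in the older ones. Cdca8, the borealin subunit of the passenger complex, had 0.738 and 1.73 CPM in the younger libraries and 1.59 and 0.582 CPM in the older ones. Birc5, survivin of the same complex, had 1.40 and 1.45 CPM in the younger libraries and 2.005 and 0.582 CPM in the older ones. The kinase of this complex, Aurkb, had 0.349 to 1.38 CPM, with its highest and lowest value both at 32 weeks. Kif20a, a midzone kinesin, had 1.55 and 2.90 CPM in the younger libraries and 1.52 and 1.34 CPM in the older ones, and its exons share 1259 bases with Cdc23 on the other strand.

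The cyclins and the degradation machinery of mitosis had few counts. Ccnb1 had 0.590 and 2.002 CPM in the younger libraries and 0.760 and 0.174 CPM in the older ones, from 8, 29, 11 and 3 counts. Ube2c, the ubiquitin-conjugating enzyme of the anaphase-promoting complex, had 0.738 and 1.59 CPM in the younger libraries and 1.31 and 0.465 CPM in the older ones, and shares 592 exonic bases with Tnnc2. Both were lowest in 32-week replicate 4. Ccnb2 ranged from 0.465 to 1.52 CPM, Ccna2, the S and G2 cyclin, from 0.349 to 1.31 (512 exonic bases shared with Exosc9), and Cdc20 from 0.698 to 1.40.

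Spindle genes had mostly low levels. Nusap1, a microtubule-binding protein, had 0.959 and 1.38 CPM in the younger libraries and 0.760 and 0.233 CPM in the older ones, and shares 172 exonic bases with Oip5 on the opposite strand. Bub1b, the checkpoint protein BubR1, had 2.07 and 1.93 CPM in the younger libraries and 1.38 and 1.28 CPM in the older ones. In Nusap1, Bub1b and Kif20a, 3 of the 19 mitotic genes tested, both 32-week libraries lay below both 8-week libraries. That order held in 14.2% of all genes tested. Tpx2, which activates Aurora A, ranged from 0.174 to 1.18 CPM, the motor Kif11 from 0.517 to 1.45 and the transcription factor Foxm1 from 0.415 to 0.898. Bub1 (1 to 6 counts per library), Plk1 (2 to 14) and Cenpf (7 to 11), a kinetochore protein, were too low for the filter on low counts and were not tested.

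Aurka, the spindle pole kinase Aurora A, stood in the opposite order to Mki67. It had 4.35 and 2.69 CPM in the younger libraries and 3.11 and 4.77 CPM in the older ones, so that 32-week replicate 4 was highest and 8-week replicate 2 lowest. No other of the 32 genes was highest in 32-week replicate 4. Per kilobase, Aurka (1.96 CPM) and Cdk1 (1.44 CPM) were the most abundant mitotic genes, against 0.337 for Mki67 and 0.0502 for Cenpf, the lowest.

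Summed over its members, the replication arm had 67.3 CPM in 8-week replicate 1 (95% exact Poisson interval 63.0 to 71.8), 90.2 in 8-week replicate 2 (85.4 to 95.3), 77.8 in 32-week replicate 3 (73.4 to 82.5) and 62.6 in 32-week replicate 4 (58.9 to 66.4). The mitotic arm had 28.6 CPM (25.9 to 31.6), 42.9 CPM (39.6 to 46.4), 37.7 CPM (34.6 to 41.0) and 20.8 CPM (18.7 to 23.1) in the same order. The libraries therefore stood in the same order in both arms, with 8-week replicate 2 highest, then 32-week replicate 3, 8-week replicate 1 and 32-week replicate 4. The highest library exceeded the lowest 1.44-fold in the replication arm and 2.06-fold in the mitotic arm. These intervals cover counting error only.

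Within each age the 2 libraries differed more than the ages did. The replication sum was 78.8 ± 16.2 CPM at 8 weeks and 70.2 ± 10.8 CPM at 32 weeks (SD, n = 2 each), a ratio of 0.891, against ratios of 1.34 within 8 weeks and 1.24 within 32 weeks. The mitotic sum was 35.8 ± 10.1 CPM at 8 weeks and 29.2 ± 11.9 CPM at 32 weeks (SD, n = 2 each), a ratio of 0.818, against 1.498 within 8 weeks and 1.81 within 32 weeks. With 2 libraries against 2, the smallest exact permutation p is 0.333, so that test could not pass for such a sum, and no other test of the sums was run.

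The balance of the arms was nearly level in 3 libraries and lower in the remaining one. Mitotic genes supplied 29.8% of the counts of the 32 genes in 8-week replicate 1 (95% exact binomial interval 27.4 to 32.4, 388 of 1300 counts). They supplied 32.2% in 8-week replicate 2 (30.1 to 34.3, 621 of 1928) and 32.6% in 32-week replicate 3 (30.4 to 34.9, 545 of 1671). In 32-week replicate 4 the share was 24.97% (22.7 to 27.3, 358 of 1434), and its interval lay below those of the other 3 libraries. For 8-week replicate 1 the gap was narrow, with a lower limit of 27.37 against the upper limit of 27.29. These binomial intervals cover counting error only, not the spread between libraries. The 32-week libraries thus held both the highest and the lowest share. Among further genes of the 2 processes, described after the age comparison, this division of 3 libraries against 1 was not repeated: mitotic CPM per 100 replication CPM was 36.7, 45.8, 41.95 and 35.02 in replicates 1 to 4, with 8-week replicate 1 close to 32-week replicate 4. For the 32 genes the same quantity was 42.5, 47.5, 48.4 and 33.3.

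**Figure D3:**
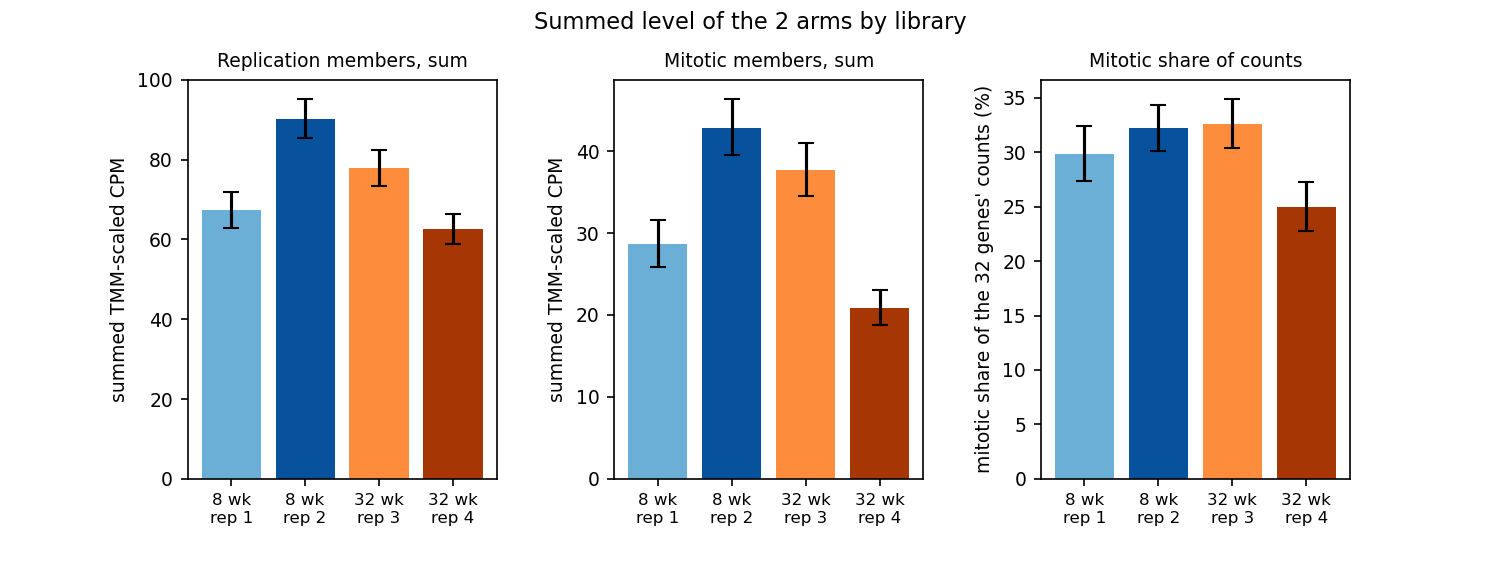
Summed TMM-scaled CPM of the 10 replication genes (left) and 22 mitotic genes (middle), and the mitotic share of the counts of all 32 (right), by library, with 95% exact Poisson or binomial intervals as error bars. Sums run from 62.6 to 90.2 CPM and from 20.8 to 42.9 CPM, and the share is lowest in 32-week replicate 4 at 24.97%.

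The members moved together between libraries of the same age. In 9 of the 10 replication genes and 18 of the 22 mitotic genes 8-week replicate 2 was above 8-week replicate 1, which held for 49.9% of all 12810 genes tested. The exceptions were Mcm2, Bub1b, Aurka, Cdc20 and Tpx2. In 8 replication and 20 mitotic genes 32-week replicate 3 was above 32-week replicate 4, against 48.4% of all genes, the exceptions being Mcm2, Mcm3, Aurka and Foxm1. Both differences were present in 8 replication genes and 17 mitotic genes, against 27.0% of all genes. The median ratio of 8-week replicate 2 to replicate 1 was 1.53 in the replication arm and 1.65 in the mitotic arm. That of 32-week replicate 3 to replicate 4 was 1.295 and 2.41. These counts describe 4 libraries, and genes are not independent replicates.

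No member passed the comparison of 32 with 8 weeks, which asks whether these transcripts differ between the ages in the knockout gland. With edgeR's quasi-likelihood test and Benjamini-Hochberg adjustment over 12810 genes, 0 of the 29 tested members were called, beside 0% of all genes tested, and each member had an adjusted p of 0.999. At an unadjusted p under 0.05 there were 0 members, beside 1.36% of all genes. Among all genes, 0.585% were lower at 32 weeks at that unadjusted threshold. DESeq2 (0.0166% of all genes called) and limma-voom (0%) also called 0 members, with 0 at an unadjusted p under 0.05. Members called were 0 as well with no filter on low counts (0.0387% of all genes) and with total counts only (0.0781%). They were 0 without 8-week replicate 1 (2.15% of all genes), replicate 2 (0.0455%), 32-week replicate 3 (0.0837%) or replicate 4 (0.13%). At an unadjusted p under 0.05 these edgeR fits held 1 member with no filter, 2 with total counts only, 3 without 8-week replicate 1, 5 without 32-week replicate 3 and 0 under the other omissions. Fitted log2 fold changes were below 0 in 9 of 10 replication genes (median -0.13) and in 16 of 19 tested mitotic genes (median -0.43), beside 51.7% of all genes (median -0.01). Both 32-week libraries lay below both 8-week libraries in 1 replication and 3 mitotic genes, beside 14.2% of all genes, and above both in none, beside 14.4%. Each of the 29 intervals included 0.

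The signs of the medians depended in part on single libraries. That of the replication arm changed only without 8-week replicate 2. That of the mitotic arm changed without either 8-week replicate 2 or 32-week replicate 4. A fit without 1 library leaves that age with a lone library, which is assumed to vary like the pair of the other age, so such fits are given for their values, not as support for a count of 0. Without 8-week replicate 2 the median was 0.20 in the replication arm, with 3 of 10 genes below 0, and 0.10 in the mitotic arm, with 9 of 20 below 0. When 32-week replicate 4 was left out the mitotic median was 0.01, with 10 of 20 below 0, and the replication median -0.09, with 6 of 10. Omitting 32-week replicate 3 gave -1.10 (mitotic) and -0.29 (replication). Omitting 8-week replicate 1 gave -0.64 and -0.41. Only 8 mitotic genes passed a filter of at least 1 CPM in 3 libraries, and their median was -0.22. Scaling each library by its total count alone gave -0.23 for the replication arm and -0.52 for the mitotic arm.

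The member with the largest fitted difference was Ccnb1 (NCBIM37 chr13:101548605-101556525), at a log2 fold change of -1.51 (SE 0.82, 95% interval -3.44 to 0.41, edgeR adjusted p = 0.999). It ranged from -0.38 without 8-week replicate 2 to -2.83 without 32-week replicate 3. Nusap1 (chr2:119444034-119476980) had -1.27 (SE 0.64, interval -2.77 to 0.24) and the smallest unadjusted p of the members, 0.0842 in edgeR's fit. It ranged from -0.61 without 32-week replicate 4 to -2.28 without 32-week replicate 3. Bub1b (chr2:118423947-118467328) had -0.59 (SE 0.38, interval -1.48 to 0.31). It was the steadiest of the 3, at -0.63 to -0.53 with each library left out in turn.

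The proliferation markers gave wide intervals. Mki67 (chr7:142881471-142908062) had a log2 fold change of -0.48 (SE 0.61, interval -1.91 to 0.96), which became 0.05 when 8-week replicate 2 was left out. Omitting 32-week replicate 4 gave 0.22 and omitting 32-week replicate 3 gave -1.74. Top2a (chr11:98854257-98885503) had -0.27 (SE 0.58, interval -1.63 to 1.09), with 0.24, 0.38 and -1.35 under the same omissions. The direction of both genes therefore changed with the omission of either of 2 libraries.

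Replication genes had narrower intervals. Pcna (chr2:132074898-132079050) had -0.28 (SE 0.22, interval -0.79 to 0.24) and Mcm7 (chr5:138605811-138613650) had -0.27 (SE 0.22, interval -0.78 to 0.23). Mcm5 (chr8:77633427-77652338) had -0.48 (SE 0.45, interval -1.53 to 0.58), and 0.03 without 8-week replicate 2. Mcm2 (chr6:88833469-88848774) had -0.07 (SE 0.24, interval -0.63 to 0.48), and 0.04 without 8-week replicate 1. The median interval reached 0.77 to either side in the replication arm and 1.43 in the mitotic arm, or 1.70-fold and 2.70-fold. These intervals are not adjusted for the number of genes, and calls after adjustment need larger differences still.

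**Figure D4:**
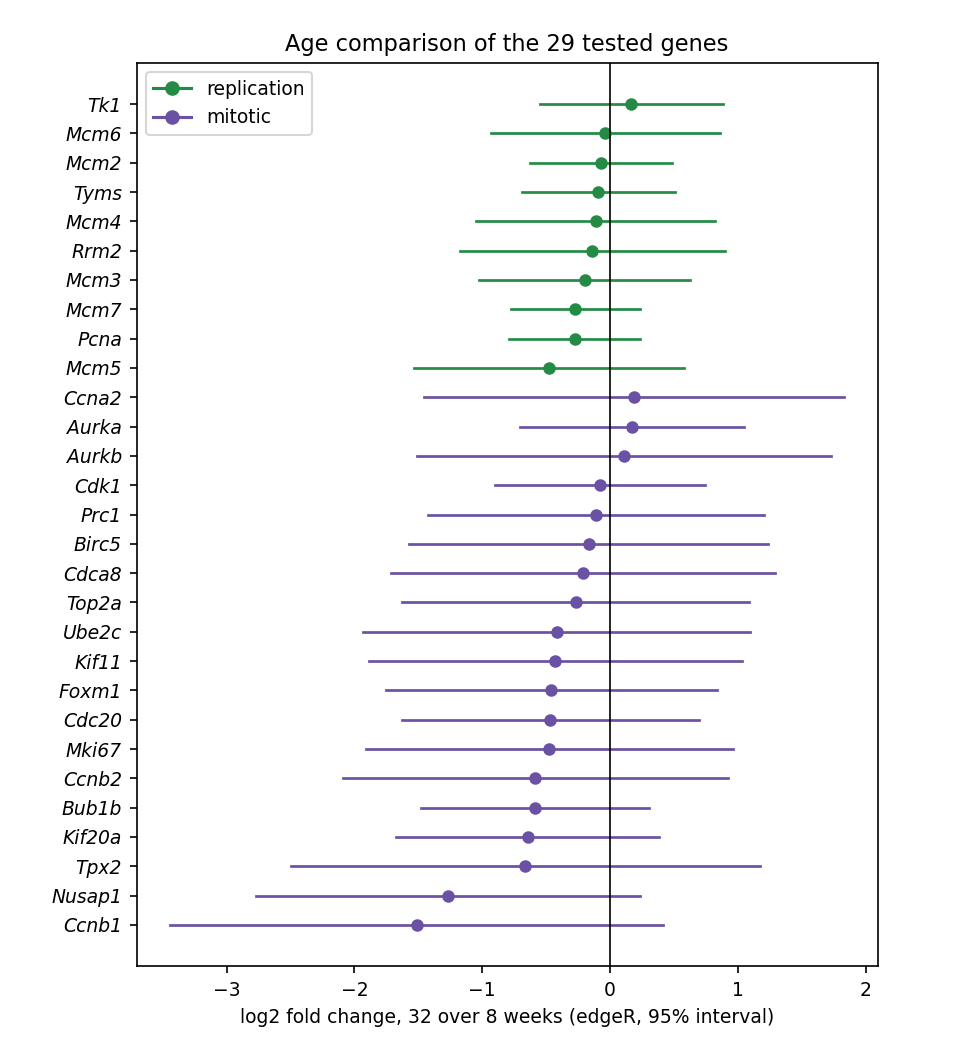
Fitted log2 fold change of 32 over 8 weeks for the 29 tested genes, with 95% intervals from edgeR's quasi-likelihood fit, for replication (green) and mitotic (purple) genes. All intervals cross 0, and they are wider for the mitotic genes, whose largest value is -1.51 for Ccnb1.

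Other genes of the 2 processes gave no call either. Of 52 further mitotic genes 51 were in the table and 32 were tested, with 0 called, 26 below 0 and a median log2 fold change of -0.29. Of 49 further replication genes 45 were tested, with 0 called, 23 below 0 and a median of 0.00. Neither list had a gene at an unadjusted p under 0.05. The most abundant mitotic gene among them was Bub3, a checkpoint protein, with 24.5 and 41.3 CPM in the younger libraries and 29.2 and 26.1 CPM in the older ones. Hmmr, a spindle protein, had 0.886 and 1.24 CPM in the younger libraries and 0.622 and 0.407 CPM in the older ones. Among replication genes Rfc1, of the clamp loader, had 46.0 and 43.7 CPM in the younger libraries and 43.0 and 40.9 CPM in the older ones, and Rrm1, the partner of Rrm2, had 10.3 and 16.1 CPM in the younger libraries and 10.4 and 9.71 CPM in the older ones.

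The order of libraries seen in the mitotic arm was also that of the further mitotic genes. Summed, these had 118 and 168 CPM in the younger libraries and 140.05 and 113 CPM in the older ones, and 32-week replicate 4 was lowest in 32 of 51, beside 20.3% of all genes. In the mitotic arm 32-week replicate 4 was lowest in 17 of 22 genes. The further replication genes had a narrow range, with 322.3 and 367 CPM in the younger libraries and 334 and 323 CPM in the older ones, so their highest to lowest ratio was 1.14 against 1.44 in the replication arm.

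**Figure D5:**
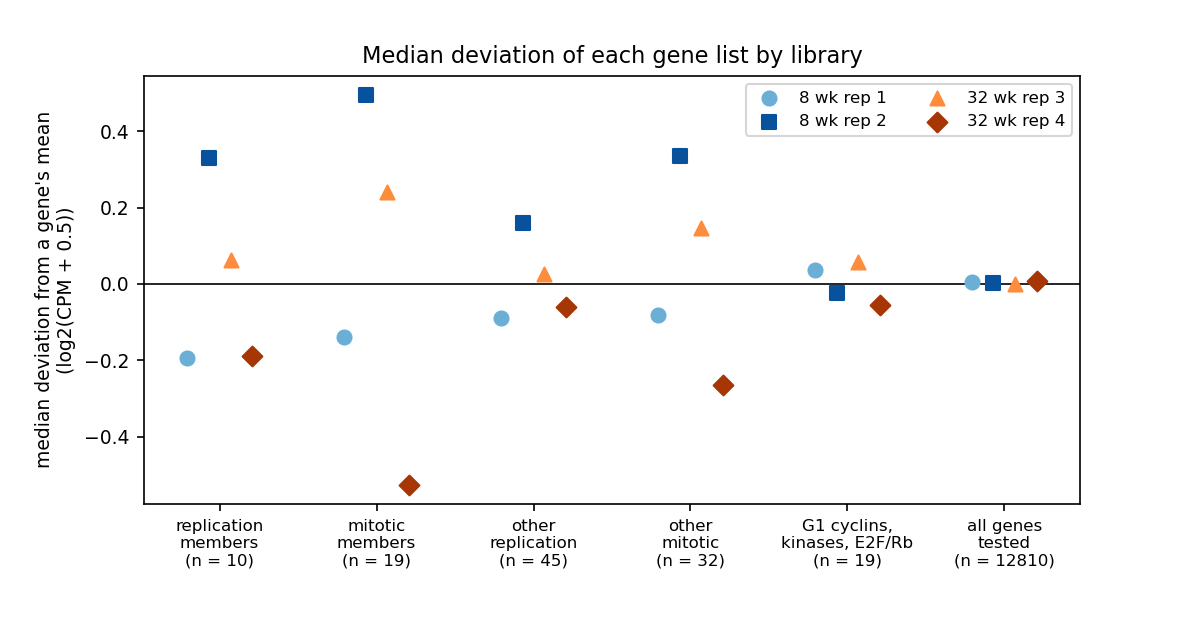
Median deviation (vertical axis, log2(CPM + 0.5) minus the gene's own mean over the 4 libraries) of each gene list in each library, over the tested genes of the list. The mitotic genes run from -0.53 in 32-week replicate 4 to 0.49 in 8-week replicate 2, the G1 list stays within -0.05 to 0.06, and all genes stay within 0.00 to 0.01.

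Genes that control entry into the cycle did not share this order. Over 22 G1 cyclins, their kinases, E2F and Rb genes the sums were 196 and 194 CPM in the younger libraries and 205 and 184 CPM in the older ones. Of the 19 tested, 0 were called and 12 were below 0 (median -0.05). Ccnd1, cyclin D1, had 25.4 and 16.7 CPM in the younger libraries and 31.2 and 23.3 CPM in the older ones, and Cdk4, its kinase, had 40.1 and 46.4 CPM in the younger libraries and 38.4 and 37.2 CPM in the older ones. Mybl2, the B-Myb of the MuvB complex, had 0.959 and 0.967 CPM in the younger libraries and 0.622 and 0.291 CPM in the older ones (log2 fold change -1.09, SE 0.58). Ccnd3, cyclin D3, had the smallest unadjusted p of this list in edgeR's fit, with 11.6 and 10.6 CPM in the younger libraries and 16.5 and 14.2 CPM in the older ones (log2 fold change 0.46, SE 0.20).

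Among 12 inhibitors and arrest genes 11 were tested and 0 called (median 0.08). Cdkn1a, the kinase inhibitor induced by p53, had 1.03 and 0.690 CPM in the younger libraries and 0.760 and 1.86 CPM in the older ones, from 14, 10, 11 and 32 counts. The list had no single order: of the 11 tested, 2 were highest and 5 lowest in 8-week replicate 2. Its most abundant genes were Btg1, with 188 and 198 CPM followed by 247 and 207 CPM, and Btg2, with 129 and 122 CPM followed by 98.8 and 132 CPM. Cdkn2a, an inhibitor that marks senescent cells, had 0 counts in all 4 libraries, which allows up to 0.174 to 0.221 CPM by library (3 counts).

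Markers of other cells moved between the same libraries. The summed level of 8 B cell and plasma cell markers was 1631 and 529.8 CPM in the younger libraries and 1284 and 1453 CPM in the older ones, lowest in the library where both arms were highest. That of 8 T cell markers was 7.97 and 2.90 CPM in the younger libraries and 2.77 and 6.34 CPM in the older ones, and that of 7 macrophage markers 174 and 99.02 CPM in the younger libraries and 118 and 160.1 CPM in the older ones. The lymph node and germinal centre markers (8 genes) summed to 29.001 and 18.6 CPM in the younger libraries and 13.9 and 15.01 CPM in the older ones. Nearly all of that sum was Bcl6, which other cells also express (25.8, 17.95, 12.7 and 13.3 CPM in replicates 1 to 4), and 4 of the 8 genes had 0 counts in every library. The lymph node genes Ccl21a and Glycam1 had 0 counts in every library. With the handling of multi-mapping reads not stated, these zeros do not show that lymph node tissue was absent. The summed duct markers (9 genes) had 1181 and 1506 CPM in the younger libraries and 1285 and 1322 CPM in the older ones, highest in 8-week replicate 2. Of the 8 tested, 5 were highest in that library and 1, Krt18, was lowest there. Krt18, the most abundant of the list, had 755 and 633 CPM followed by 789 and 859 CPM. Tfcp2l1, the next, had 261 and 394 CPM followed by 300 and 274 CPM. From the basal and progenitor list, Kit, a receptor of duct progenitor cells, had 10.6 and 23.6 CPM in the younger libraries and 14.7 and 7.33 CPM in the older ones, the same order of libraries as Mki67, and was singled out after its values were seen. Others of its list stood in other orders: Sox2, a progenitor factor, had 69.1 and 21.1 CPM in the younger libraries and 60.9 and 54.6 CPM in the older ones, and Krt14, a basal keratin, had 48.3 and 50.3 CPM followed by 43.3 and 65.8 CPM. In that list 8 of 10 fitted fold changes were above 0. The part of these cell types in the levels of the replication and mitotic genes was not tested.

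Further lists did not follow the members' full order of libraries. The summed acinar markers (9 genes) had 315682 and 433333 CPM in the younger libraries and 524205 and 326095 CPM in the older ones. They were highest in 32-week replicate 3, but within each age the higher library was the same as in both arms. Their 2 most abundant genes stood in opposite orders. Dcpp3 had 81956 and 178597 CPM followed by 249002 and 90256 CPM. Smgc had 142077 and 73277 CPM followed by 41973 and 125863 CPM. The part of acinar content in the members' levels was not tested. The 10 basal, progenitor and myoepithelial markers had 504 to 538 CPM at 8 weeks and 582 to 644 CPM at 32 weeks, and the 7 endothelial markers 72.9 to 92.2 and 83.2 to 125. The 6 fibroblast markers had 308 to 360.3 CPM at 8 weeks and 322 to 408 CPM at 32 weeks, and the 5 adipocyte markers 3.66 to 24.5 and 0.207 to 4.13. The 9 submandibular and parotid secretory genes had 489 to 604 CPM at 8 weeks and 133 to 178 CPM at 32 weeks. Of 8 tested, 0 were called. In edgeR's fit 6 had an unadjusted p under 0.05, all lower at 32 weeks, beside 0.585% of all genes. In 6 both 32-week libraries lay below both 8-week libraries, beside 14.2% of all genes. Amy1 and Dnase1 were high in 8-week replicate 1 alone, so single genes differed more within 8 weeks than the sums did. This list was chosen with earlier results of these data known. Skeletal muscle markers (6 genes) stayed between 2.49 and 5.82 CPM in all libraries, with Myh1 at 0. Of the erythroid genes, the 5 globin genes listed had 0 counts. Alas2, the remaining gene of that list, had 4.35 and 3.66 CPM in the younger libraries and 3.04 and 4.60 CPM in the older ones. The handling of multi-mapping reads is not stated, so the globin zeros do not show that blood was absent. The ribosomal RNA precursor Rn45s made up 3.69% and 1.40% of the younger libraries and 2.24% and 3.38% of the older ones, lowest in 8-week replicate 2, and its part in the result was not tested.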

How the data were processed

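STAR and the build mm9 are named per the submitters' processing notes. How reads were counted (tool, annotation, strand, multi-mapping) is given in none of the sources used here, so counts of overlapping genes are uncertain. The deposited table holds raw counts by gene symbol, with 1 column per library (12925869 to 16484772 counts). From these counts everything else was computed in R 4.3.3 with edgeR 4.0.16: TMM scaling, filterByExpr grouped by age (12810 genes, 29 of the 32 members) and the quasi-likelihood test with age as the only term, at an adjusted p of 0.05. Standard errors come from the fold change and its F statistic. The fit was tested on simulated data, where it recovered few of the smallest changes and, with larger ones, made more false calls than the threshold allows. The 32 members and all lists were chosen with earlier results of these data known. All members are named, per-library CPM is given for those whose mean reached 1 CPM, and full statistics for the 3 of each arm with the smallest unadjusted p and for Mki67, Top2a, Mcm2 and Pcna. Of the other cell cycle lists, the most abundant genes and those with the smallest p were eligible, and of the marker lists the most abundant genes and those at 0. Not all eligible genes are shown, and some genes outside this rule are, such as Cdkn2a, Kit and Sox2. Alternatives were RLE factors, total counts, the 10 most abundant genes left out, other filters, DESeq2 1.42.0, limma-voom (limma 3.58.1) and each library left out. Gene positions and transcript lengths are from GENCODE vM1 on NCBIM37, the assembly mm9 names, in which all 32 symbols matched. Promoters are RefSeq's on GRCm38.p6.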

Additional observations from a re-analysis of the deposited data

How the results depend on the processing

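No member was called between the ages under any of the 7 alternative settings. None was called with a library left out either, where 1 age has a lone library and the spread comes from the other age alone. The smallest adjusted p of a member was 0.152, in edgeR's fit without 8-week replicate 1. Over all genes the count of calls was 0 in the reported fit, 10 with total counts only, 7 with no low-count filter, 3 with DESeq2, and 6 to 285 with each library left out in turn. The cause of these differences was not tested. With each library left out the median log2 fold change ran from -0.41 to 0.20 in the replication arm and from -1.10 to 0.10 in the mitotic arm. Under the same omissions Mki67 ran from -1.74 to 0.22, Top2a from -1.35 to 0.38, Mcm5 from -0.84 to 0.0296 and Mcm2 from -0.17 to 0.0421, while Pcna, Mcm7, Ccnb1, Nusap1 and Bub1b stayed below 0. Leaving out libraries for the summed levels was chosen after seeing the data. The log2 difference of the mitotic sum (32 minus 8 weeks, -0.32) then ran from -0.75 to 0.10 and that of the replication sum (-0.16) from -0.37 to 0.05. No paired analysis was possible because the ages share no replicate numbers. Counts summed over the 4 libraries were 15 to 246 for each mitotic gene and 122 to 1234 for each replication gene. How much of the wider mitotic intervals is counting error was not tested.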
